A study of Homo sapiens with 16 samples.

Results

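HRAS and NRAS, which encode small GTPases of the RAS family, were followed together with 7 genes that the kinase ERK induces below RAS, namely DUSP4, DUSP5, DUSP6, SPRY2, SPRY4, ETV4 and ETV5. These 9 genes were chosen by symbol and matched through their Ensembl identifiers, and 9 of 9 were found among the 60448 genes of the count tables. All 9 passed the filter on low counts that left 18285 genes to test. The libraries hold RNA of HMLER cells, a line of human mammary epithelial cells that was immortalized and transformed with introduced genes, among them TERT and an oncogenic HRAS. The study compared a stable epithelial state, plastic epithelial states and mesenchymal states of this line. There were 8 groups with 2 libraries each. In sgEED-Mes (mesenchymal) and sgEED-Epi (epithelial), C1 cells had been edited with a guide against EED, a subunit of the repressive complex PRC2 (genotype label EED-KO). In sgKMT2D-Mes and sgKMT2D-Epi, C1 cells had been edited with a guide against KMT2D, an activating histone methyltransferase (genotype label KMT2D-KO). C2-Mes and C2-Epi are the mesenchymal and plastic epithelial states of unedited C2 cells. sgControl is C1 with a control guide, and C1 is the unedited, stable epithelial state, and the labels give wild type as the genotype of these groups. All groups carry the introduced genes of the line and grew in the same medium with insulin, hydrocortisone and EGF at 10 ng/ml. Whether the libraries within a group came from separate cultures is not labelled, nor whether a group is 1 clone, or which RNA came from sorted cells. The p-values therefore measure only the spread between libraries within groups, pooled per gene over all 8 groups. Clone and state cannot be told apart.

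RAS proteins switch between a GTP-bound, active form and a GDP-bound form, and growth factor receptors such as EGFR drive the switch through exchange factors. Active RAS recruits RAF kinases, which activate MEK and then ERK, and ERK enters the nucleus and turns on genes that restrain the same pathway. Among these are dual-specificity phosphatases (DUSP), which remove phosphate from ERK, and Sprouty proteins (SPRY), which block signalling between receptor and RAF, while ETV4 and ETV5 are ETS transcription factors of the PEA3 group whose transcripts follow ERK activity in many cell types. Counts of reads measure transcripts only, not protein, GTP loading or phosphorylation, and reads of the introduced HRAS cannot be told apart from those of the gene's own transcript.

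Total counts ran from 18872124 in C2-Mes replicate 1 to 31950649 in C2-Mes replicate 2. The 2 C2-Mes libraries stood apart from each other, with a correlation across genes of 0.967 against 0.988 to 0.994 in the other groups, and the deposited name of replicate 1 reads as prepared again. Changes of the 9 genes between C2-Mes and C2-Epi are therefore given with and without each C2-Mes library. The SD of log2 differences between replicates was 0.890 in C2-Mes and 0.361 to 0.493 in the other groups. The p-values of C2-Mes comparisons rest on the pooled spread and may be too small. With only the compared libraries in the fit, 3361 genes passed for C2-Mes against C2-Epi, against 7246 with all libraries. In C2-Mes and sgKMT2D-Mes, 7 epithelial marker genes summed to 91.9 to 112 CPM (counts scaled to a library total of 1000000), in sgEED-Mes to 2080 to 2092 CPM, and in the epithelial groups to 5382 to 13823 CPM. In sgEED-Mes most of the sum was DSP (998 CPM) and KRT8 (955 CPM), while CDH1, GRHL2 and EPCAM averaged 0.298, 0.215 and 0.952 CPM there and at most 1.15 CPM in the other mesenchymal groups. Of the 7 epithelial markers, 1 rose, 5 fell and 1 did not pass in sgEED-Mes against sgEED-Epi (edgeR, adjusted p under 0.05). All 7 fell in sgKMT2D-Mes and in C2-Mes against their epithelial groups. In these 3 comparisons, 36.5%, 50.8% and 39.6% of all genes passed. The 7 mesenchymal markers summed to 45228 to 156478 CPM in the mesenchymal and 13220 to 24316 CPM in the epithelial libraries, which goes with the labels. In bulk RNA, fewer cells of a type and less RNA per cell cannot be told apart. Leukocyte markers summed to at most 0.711 CPM. Endothelial markers summed to 18.5 and 30.7 CPM in the C2-Mes libraries and at most 4.60 CPM elsewhere. PECAM1 made up 16.6 and 25.5 CPM of these C2-Mes sums, and CDH5 had 0 counts in both libraries. Transcripts of EED stood at 5.36 ± 0.197 CPM in sgEED-Mes, 28.1 ± 1.99 in sgEED-Epi and 24.1 ± 3.52 in sgControl, and those of KMT2D at 81.7 ± 6.92 CPM in sgKMT2D-Mes, 126 ± 1.84 in sgKMT2D-Epi and 80.4 ± 13.4 in sgControl (mean ± SD, n = 2 each). A guide can disable a protein without lowering its transcript, so these levels do not show the state of either gene.

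Promoters were read from RefSeq (GRCh38.p14) as 250 bases before to 50 bases after a transcript start, and HRAS, NRAS, DUSP6, SPRY2 and SPRY4 (5 of 9 genes) matched. Those of the Sprouty genes are printed because both genes rose together in C2-Mes and sgEED-Mes, and that of DUSP6 because its group means differed least. Each lies on the minus strand and is written 5′ to 3′ along the gene. Capitals mark the 4-letter core of ETS factor sites, GGAA, on either strand (TTCC on the other), and TGACG, the core of cyclic AMP response elements.
SPRY2, first of 3 starts, chr13:80341077-80341376: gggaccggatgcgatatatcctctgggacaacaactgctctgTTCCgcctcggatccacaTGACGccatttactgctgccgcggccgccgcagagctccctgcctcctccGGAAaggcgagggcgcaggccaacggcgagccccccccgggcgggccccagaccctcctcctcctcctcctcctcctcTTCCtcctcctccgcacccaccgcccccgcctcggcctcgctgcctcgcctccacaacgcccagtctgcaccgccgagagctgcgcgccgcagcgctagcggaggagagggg
SPRY4, chr5:142324198-142324497: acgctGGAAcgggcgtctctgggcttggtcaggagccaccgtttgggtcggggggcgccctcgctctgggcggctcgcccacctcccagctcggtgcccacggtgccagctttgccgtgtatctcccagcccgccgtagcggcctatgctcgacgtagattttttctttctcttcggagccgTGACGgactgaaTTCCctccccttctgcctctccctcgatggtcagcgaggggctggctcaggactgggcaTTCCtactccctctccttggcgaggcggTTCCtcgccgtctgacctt
DUSP6, chr12:89352452-89352751: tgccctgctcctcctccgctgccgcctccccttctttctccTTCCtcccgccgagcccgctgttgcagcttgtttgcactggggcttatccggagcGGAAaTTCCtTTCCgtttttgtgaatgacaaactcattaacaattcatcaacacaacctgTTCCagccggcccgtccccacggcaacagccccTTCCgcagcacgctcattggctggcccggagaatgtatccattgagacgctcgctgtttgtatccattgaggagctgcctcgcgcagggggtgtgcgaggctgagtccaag
GGAA or its complement was found 3 times in the SPRY2 window, 4 times in that of SPRY4 and 6 times in that of DUSP6. A window of this length held it in 95.5% of 35116 RefSeq promoters, so its presence sets none of them apart. TGACG was found 1 time in each printed Sprouty window, 0 times at the other 2 starts of SPRY2 and 0 times in that of DUSP6, and 24.6% of all promoters held it. The AP-1 letters TGANTCA were in none of the 3 windows and in 7.71% of all promoters. A match is a run of letters and not a measured binding site.

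Levels are given in CPM, scaled between libraries by TMM, and as CPM per kilobase of exon where genes are set against each other. Per kilobase, HRAS was the highest of the 9 genes in C1 at 44.9 ± 0.648 and in C2-Mes at 189 ± 46.6. DUSP4 stood at 11.2 ± 0.431 CPM per kilobase in C1, and SPRY4 was the lowest there at 4.38 ± 0.490. Group means of a gene differed most for ETV4, with 16.2-fold between its highest and lowest group, followed by DUSP4 with 13.7-fold and SPRY2 with 8.45-fold. They differed least for DUSP6, with 2.57-fold. The plot of levels by library and the map of group means show that C2-Mes held the highest level of 5 genes, HRAS, DUSP4, SPRY2, SPRY4 and ETV5.

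**Figure D1:**
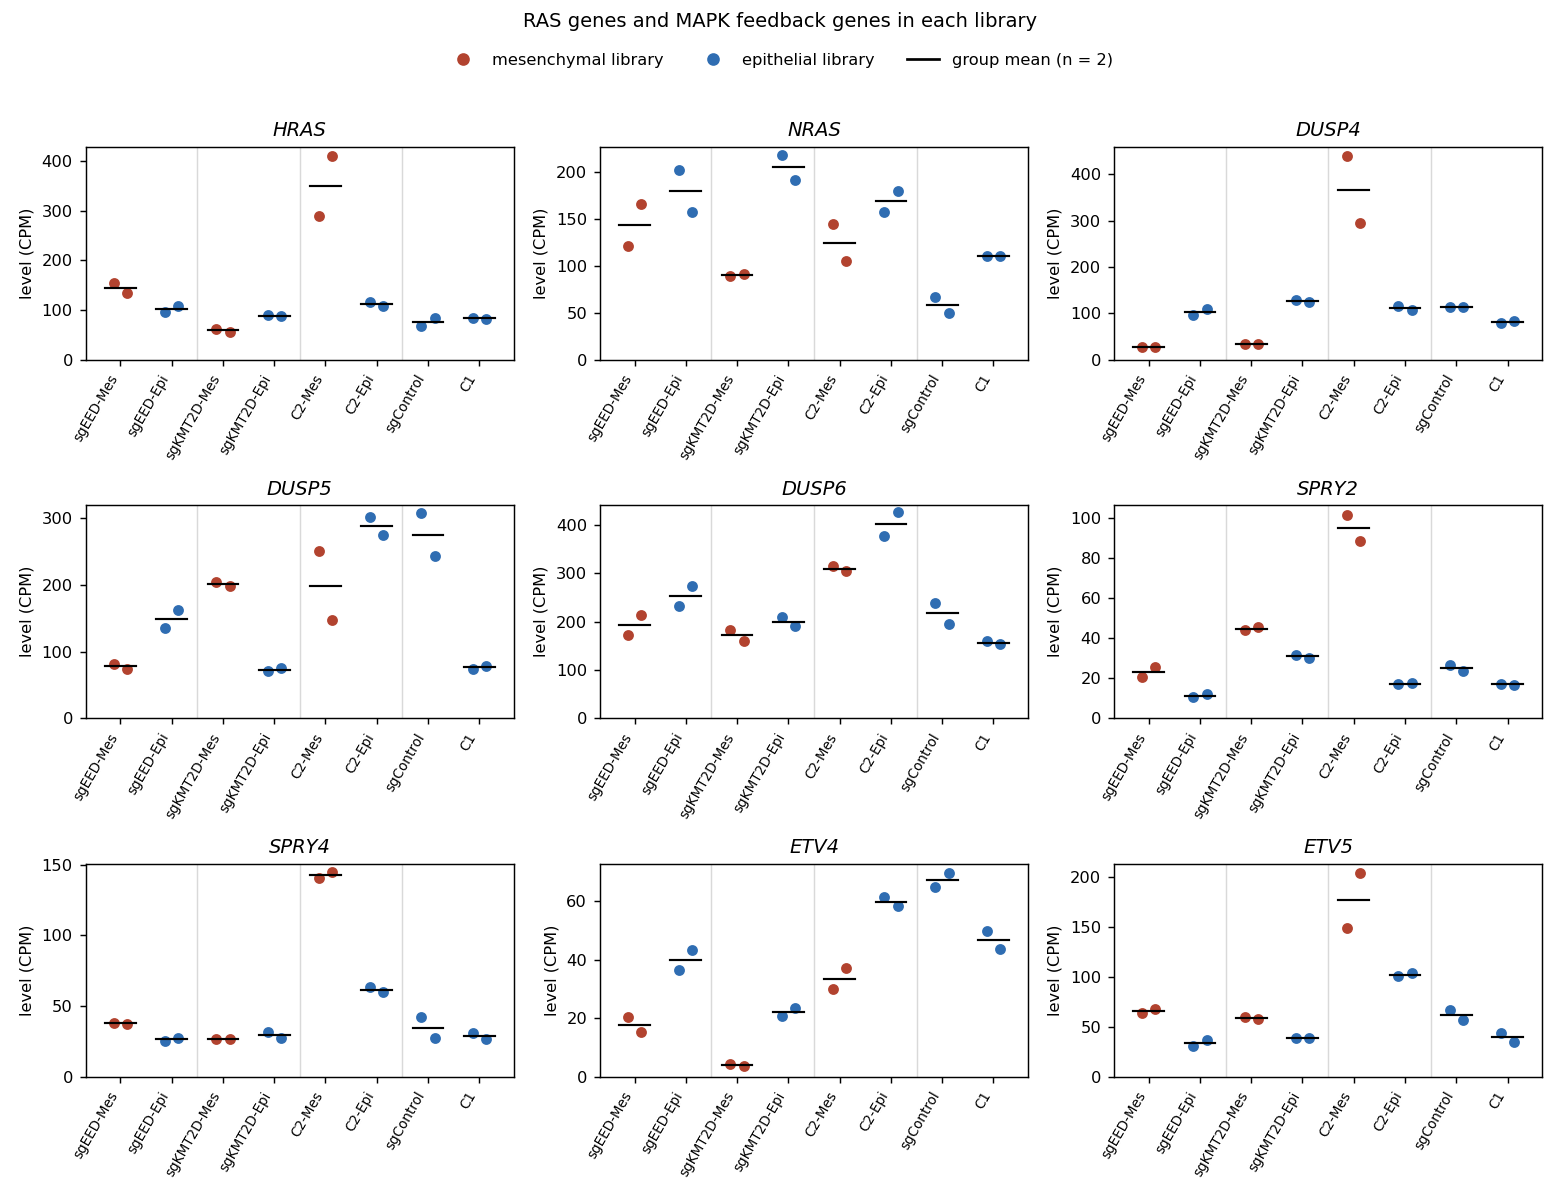
Level of each of the 9 genes (CPM, linear axis from 0) in each of the 16 libraries, by group. Points are libraries (red mesenchymal, blue epithelial) and black lines are means of 2. The C2-Mes libraries of HRAS sit at 288 and 411 CPM, above all others, while those of ETV4 at 29.9 and 37.3 CPM sit below both C2-Epi libraries.

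**Figure D2:**
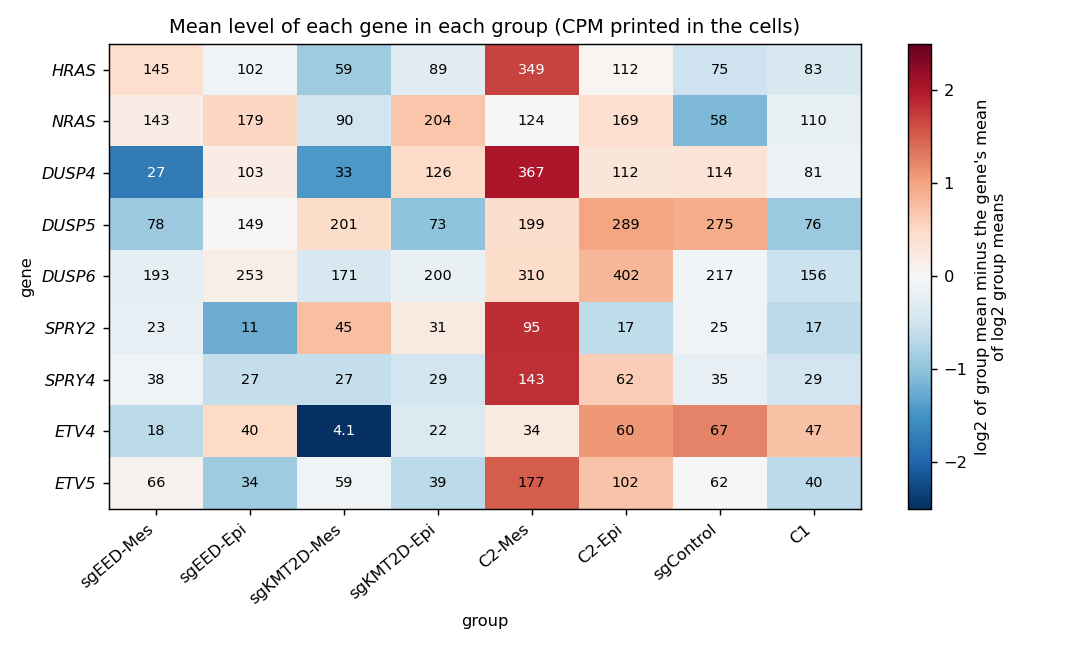
Mean level of each gene in each group, with the mean CPM of 2 libraries printed in the cell. The colour gives the log2 of that mean minus the gene's average over the 8 groups. C2-Mes is the highest group for HRAS, DUSP4, SPRY2, SPRY4 and ETV5, and sgKMT2D-Mes is far below the gene's average for ETV4 (4.14 CPM).

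The study's 3 pairs of states set mesenchymal cells against epithelial cells of the same lineage, and the question is which RAS pathway transcripts move with the state. A log2 change is the fitted ratio of the group named first over the second, and a gene passed at an adjusted p under 0.05 over all 18285 genes. In sgEED-Mes against sgEED-Epi, 4 of the 9 genes rose, 3 fell and 2 did not pass, where 36.5% of all genes passed (19.2% up, 17.3% down). In sgKMT2D-Mes against sgKMT2D-Epi, 3 rose, 4 fell and 2 did not pass, where 50.8% of all genes passed (26.8% up, 24% down). In C2-Mes against C2-Epi, 5 rose, 1 fell and 3 did not pass, where 39.6% of all genes passed (21% up, 18.6% down). The median log2 change of the 9 genes was -0.33, -0.22 and 0.79 in that order of comparisons, against 0.01, 0.02 and 0.01 over all genes. SPRY2 and ETV5 rose and ETV4 fell in each of the 3 comparisons. The other genes that passed did so in different directions or in fewer comparisons. These comparisons share no library, but both guide lineages came from C1, and 1 fit with a pooled spread per gene tested all 3. The share of all genes that passed in the same direction in all 3 was not counted.

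**Figure D3:**
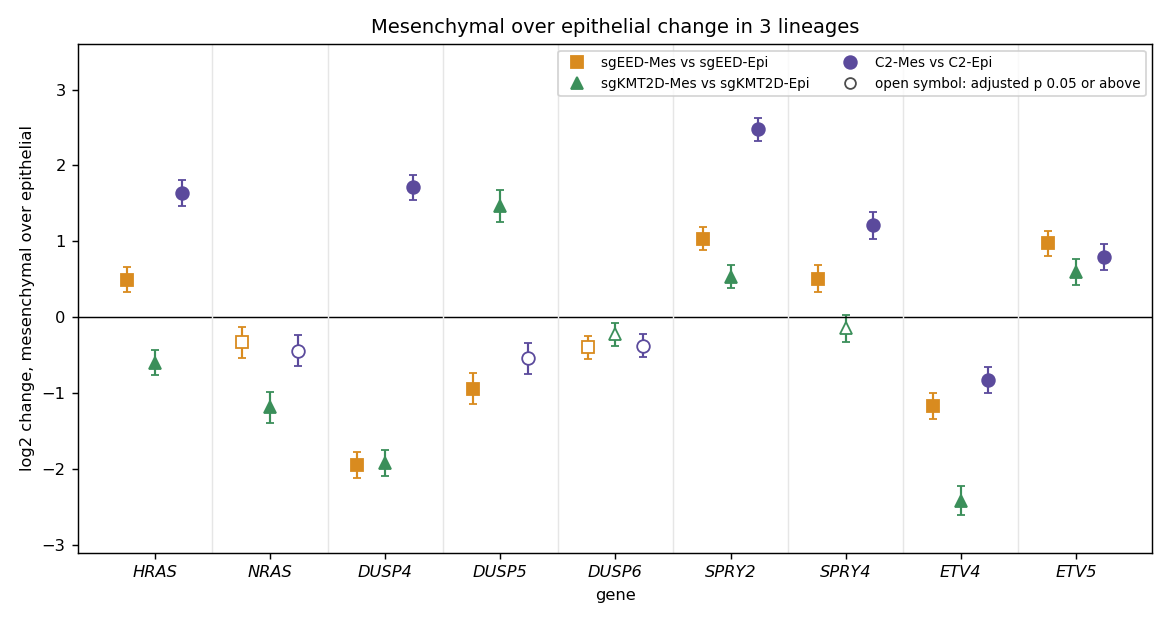
Fitted log2 change (± SE) of each gene in mesenchymal over epithelial cells of 3 lineages. Filled symbols have an adjusted p under 0.05 (edgeR, over 18285 genes). DUSP4 lies at 1.71 in C2 and near -1.9 under both guides, while ETV4 lies below 0 and SPRY2 and ETV5 above 0 in all 3.

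Of the RAS genes, HRAS (ENSG00000174775, GRCh38 chromosome 11, 532242 to 537287, minus strand) is the form introduced into this line as an oncogene. HRAS stood at 154 and 135 CPM in the sgEED-Mes libraries, against 96.4 and 108 CPM in the sgEED-Epi libraries. It stood at 61.9 and 55.7 CPM in sgKMT2D-Mes, against 89.4 and 88.2 CPM in sgKMT2D-Epi. In C2-Mes it stood at 288 and 411 CPM, against 115 and 109 CPM in C2-Epi. The groups did not overlap in any of these pairs, and the mesenchymal libraries were the higher ones under the EED guide and in C2 and the lower ones under the KMT2D guide. HRAS rose in C2-Mes (log2 1.64 ± 0.17 (SE), adjusted p = 3.4e-06) and fell in sgKMT2D-Mes (log2 -0.59 ± 0.17 (SE), adjusted p = 0.0094). The rise in C2-Mes held without either of its libraries (log2 1.77, adjusted p = 6.0e-08 without replicate 1, log2 1.32, adjusted p = 2.2e-06 without replicate 2). The rise in sgEED-Mes (log2 0.50 ± 0.17 (SE), adjusted p = 0.032) was lost in 11 of 16 fits that left out 1 library (adjusted p = 0.051 to 0.19 in those) and held without C2-Mes replicate 1 or 2, sgControl replicate 1 or 2, or sgEED-Mes replicate 2. It was lost too with only the compared libraries in the fit (log2 0.42, adjusted p = 0.086). In the order of all groups, each neighbouring pair was apart except C1 and sgControl, and sgKMT2D-Mes was the lowest.

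NRAS (ENSG00000213281, chromosome 1, 114704469 to 114716894, minus strand) encodes a RAS protein closely related to that of HRAS. Its level was 120.5 and 165 CPM in sgEED-Mes, against 202 and 157 CPM in sgEED-Epi, and these ranges overlap. In sgKMT2D-Mes it was 89.3 and 90.7 CPM, against 218 and 191 CPM in sgKMT2D-Epi. In C2-Mes it was 144 and 105 CPM, against 157 and 179.9 CPM in C2-Epi. The mesenchymal libraries were clearly below the epithelial ones under the KMT2D guide, where NRAS fell (log2 -1.18 ± 0.21 (SE), adjusted p = 0.0003). It did not pass in sgEED-Mes (log2 -0.33, adjusted p = 0.24) or in C2-Mes (log2 -0.44, adjusted p = 0.11). Without C2-Mes replicate 1, the higher of its 2 libraries, the C2 comparison passed (log2 -0.80, adjusted p = 0.0072), and without replicate 2 it did not (log2 -0.27, adjusted p = 0.34). It passed in C2-Mes without the filter on low counts (log2 -0.53, adjusted p = 0.020). With the correction for GC content and length, NRAS passed as a fall in sgEED-Mes (log2 -0.37, adjusted p = 0.0074) and in C2-Mes (log2 -0.42, adjusted p = 0.0032) as well. The 6 highest groups form a chain of overlapping neighbours, with sgKMT2D-Epi at the top and C1 at its end, and sgKMT2D-Mes and then sgControl stand below it. Per kilobase of exon, the level of HRAS over that of NRAS was 7.11 ± 3.27 in C2-Mes, 2.51 ± 0.790 in sgEED-Mes and 1.57 ± 0.135 in sgKMT2D-Mes, against 1.05 ± 0.0880 to 1.60 ± 0.219 in the 3 plastic epithelial groups, 3.25 ± 1.14 in sgControl and 1.81 ± 0.0201 in C1 (SD, n = 2 each).

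DUSP4 (ENSG00000120875, chromosome 8, 29333064 to 29350668, minus strand) encodes a nuclear phosphatase that acts on ERK and on other MAP kinases. It stood at 26.4 and 26.99 CPM in sgEED-Mes, against 95.7 and 109.8 CPM in sgEED-Epi. In sgKMT2D-Mes it stood at 33.5 and 33.1 CPM, against 128 and 124 CPM in sgKMT2D-Epi. In C2-Mes it stood at 439 and 294 CPM, against 116 and 107 CPM in C2-Epi. The groups of each pair were far apart, and the edited mesenchymal libraries were the lowest of the series while the C2-Mes libraries were the highest. DUSP4 fell in sgEED-Mes (log2 -1.95 ± 0.17 (SE), adjusted p = 7.3e-07) and in sgKMT2D-Mes (log2 -1.92 ± 0.17 (SE), adjusted p = 5.8e-07), and rose in C2-Mes (log2 1.71 ± 0.17 (SE), adjusted p = 1.6e-06). The rise was 1.29 on the log2 scale without C2-Mes replicate 1 and 1.93 without replicate 2, and passed in both fits. All 3 calls held in each of the 16 fits without 1 library. Between the ends, sgKMT2D-Epi was apart from sgControl below it, and sgControl, C2-Epi and sgEED-Epi overlapped as neighbours.

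DUSP5 (ENSG00000138166, chromosome 10, 110497838 to 110511544, plus strand) encodes a nuclear phosphatase specific for ERK. It stood at 81.8 and 73.5 CPM in sgEED-Mes, against 135 and 162 CPM in sgEED-Epi. The sgKMT2D-Mes libraries held 204 and 199 CPM, against 70.6 and 74.9 CPM in sgKMT2D-Epi. The C2-Mes libraries held 251 and 147 CPM, against 302 and 275 CPM in C2-Epi. None of these pairs overlapped, and the 2 guides gave opposite orders of the mesenchymal and epithelial libraries. DUSP5 fell in sgEED-Mes (log2 -0.94 ± 0.21 (SE), adjusted p = 0.0027) and rose in sgKMT2D-Mes (log2 1.47 ± 0.21 (SE), adjusted p = 5.3e-05). In C2-Mes it lay just outside the threshold (log2 -0.54 ± 0.21 (SE), adjusted p = 0.051) and passed in 11 of 16 fits that left out 1 library, all but those without a C2-Epi or sgKMT2D-Mes library or C2-Mes replicate 2. Its value there rests on which C2-Mes library is kept, with log2 -1.08, adjusted p = 3.3e-05 without replicate 1 and log2 -0.24, adjusted p = 0.21 without replicate 2. C2-Epi and sgControl overlapped at the top of the order and sgEED-Mes, C1 and sgKMT2D-Epi at its end. Summed CPM of 9 immediate early genes, which follow stimulation and handling of cells within minutes, moved with several of these levels. They summed to 949 to 1144 in sgEED-Mes against 889 to 1075 in sgEED-Epi, to 969 to 1175 in sgKMT2D-Mes against 480 to 482 in sgKMT2D-Epi, and to 594 to 1003 in C2-Mes against 1369 to 1422 in C2-Epi, and their part in the DUSP5 values was not tested.

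DUSP6 (ENSG00000139318, chromosome 12, 89347232 to 89353271, minus strand) encodes a cytoplasmic phosphatase specific for ERK. It stood at 172 and 214 CPM in sgEED-Mes, against 232 and 274 CPM in sgEED-Epi. In sgKMT2D-Mes it stood at 182 and 160.5 CPM, against 209 and 191 CPM in sgKMT2D-Epi. In C2-Mes it stood at 316 and 304 CPM, against 376 and 427 CPM in C2-Epi. The mesenchymal libraries were below the epithelial ones in each pair without overlap, which groups this small can show without a true difference. The falls did not pass in sgEED-Mes (log2 -0.39 ± 0.15 (SE), adjusted p = 0.059), sgKMT2D-Mes (log2 -0.22 ± 0.15 (SE), adjusted p = 0.24) or C2-Mes (log2 -0.37 ± 0.15 (SE), adjusted p = 0.066). The C2 and sgEED values lay close to the threshold: DUSP6 passed in 13 of 16 fits without 1 library for C2-Mes and in 11 of 16 for sgEED-Mes, each time as a fall. For C2-Mes the value was log2 -0.51 (adjusted p = 0.019) without its replicate 1 and log2 -0.39 (adjusted p = 0.073) without its replicate 2. DUSP6 also passed as a fall in C2-Mes with DESeq2, without the filter on low counts and with the GC and length correction (adjusted p = 0.019 to 0.048). It passed in sgEED-Mes without the filter or with the correction (adjusted p = 0.049 and 0.0055), and in sgKMT2D-Mes with only the compared libraries in the fit (log2 -0.24, adjusted p = 0.0086). The C2 value did not pass without C2-Epi replicate 2, C2-Mes replicate 2 or sgControl replicate 1, and the sgEED value without a C1 library, sgControl replicate 1, sgEED-Epi replicate 2 or sgEED-Mes replicate 1. Neighbours from sgEED-Epi down to sgKMT2D-Mes overlapped in the order of groups, with the C2 groups above them and C1 below. Reads of the antisense transcript AC024909.2, which overlaps DUSP6, came to at most 17 counts in a library against at least 3666 for DUSP6.

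Both Sprouty genes, which encode inhibitors of receptor signalling to RAS, rose in sgEED-Mes and C2-Mes, and SPRY2 in sgKMT2D-Mes as well. SPRY2 (ENSG00000136158, chromosome 13, 80335976 to 80340951, minus strand) stood at 20.8 and 25.5 CPM in sgEED-Mes, against 10.3 and 12.2 CPM in sgEED-Epi. The sgKMT2D-Mes libraries held 44.2 and 45.3 CPM, against 31.7 and 29.96 CPM in sgKMT2D-Epi. The C2-Mes libraries held 102 and 88.7 CPM, against 16.9 and 17.3 CPM in C2-Epi. Every mesenchymal library was above both epithelial libraries of its lineage. SPRY2 rose in C2-Mes (log2 2.48 ± 0.15 (SE), adjusted p = 1.6e-08), in sgEED-Mes (log2 1.04 ± 0.15 (SE), adjusted p = 9.8e-05) and in sgKMT2D-Mes (log2 0.54 ± 0.15 (SE), adjusted p = 0.0072). The last call was lost without sgKMT2D-Epi replicate 2, sgKMT2D-Mes replicate 1 or sgKMT2D-Mes replicate 2 (adjusted p = 0.058 to 0.097), and without the filter on low counts (log2 0.45, adjusted p = 0.083). The C2 value was 2.26 without C2-Mes replicate 1 and 2.53 without replicate 2 and passed in both. In the order of groups, sgControl overlapped sgEED-Mes and C2-Epi overlapped C1, and the other neighbours were apart.

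SPRY4 (ENSG00000187678, chromosome 5, 142310427 to 142326455, minus strand) stood at 38.1 and 37.4 CPM in sgEED-Mes, against 25.5 and 27.6 CPM in sgEED-Epi. The sgKMT2D-Mes libraries held 26.8 and 26.5 CPM, against 31.4 and 27.5 CPM in sgKMT2D-Epi. The C2-Mes libraries held 141 and 145 CPM, against 63.2 and 60.3 CPM in C2-Epi. The C2-Mes libraries agreed closely with each other and were higher than any other library, whereas the sgKMT2D-Mes libraries lay below both sgKMT2D-Epi libraries by a small margin. SPRY4 rose in C2-Mes (log2 1.21 ± 0.18 (SE), adjusted p = 7.8e-05) and did not pass in sgKMT2D-Mes (log2 -0.14, adjusted p = 0.53). Its rise in C2-Mes was 1.12 without C2-Mes replicate 1 and 1.15 without replicate 2 and passed in both. The rise in sgEED-Mes (log2 0.51 ± 0.18 (SE), adjusted p = 0.036) was lost in 12 of 16 fits without 1 library (adjusted p = 0.055 to 0.16 in those), all but those without a C2-Mes or an sgControl library, and with only the compared libraries in the fit (log2 0.43, adjusted p = 0.091). C2-Mes and C2-Epi stood apart at the top, and all neighbours from sgEED-Mes down overlapped. The antisense gene SPRY4-AS1, which lies in the span of SPRY4 and shares 0 bases of exon with it, held 12 to 94 counts a library, against at least 606 for SPRY4.

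The PEA3 factors moved in opposite directions. ETV4 (ENSG00000175832, chromosome 17, 43527844 to 43579620, minus strand) stood at 20.4 and 15.1 CPM in sgEED-Mes, against 36.5 and 43.2 CPM in sgEED-Epi. In sgKMT2D-Mes it stood at 4.48 and 3.81 CPM, against 20.9 and 23.3 CPM in sgKMT2D-Epi. In C2-Mes it stood at 29.9 and 37.3 CPM, against 61.3 and 58.2 CPM in C2-Epi. No mesenchymal library reached an epithelial library of its lineage, and the sgKMT2D-Mes libraries were the lowest of all. ETV4 fell in sgKMT2D-Mes (log2 -2.41 ± 0.19 (SE), adjusted p = 2.1e-07), in sgEED-Mes (log2 -1.17 ± 0.18 (SE), adjusted p = 0.00013) and in C2-Mes (log2 -0.83 ± 0.17 (SE), adjusted p = 0.0015). The 3 calls held in each fit without 1 library, and the C2 value was -0.79 without C2-Mes replicate 1 and -1.04 without replicate 2. In the order of groups only sgEED-Epi and C2-Mes overlapped as neighbours. The locus lies wholly inside the span of DHX8 on the other strand, with 68 bases of shared exon, and DHX8 held 1021 to 2407 counts a library against at least 87 for ETV4, so reads of either gene could be counted for the other if strand was not used.

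ETV5 (ENSG00000244405, chromosome 3, 186046308 to 186110318, minus strand) stood at 64.2 and 68.1 CPM in sgEED-Mes, against 30.96 and 36.3 CPM in sgEED-Epi. The sgKMT2D-Mes libraries held 59.7 and 58.2 CPM, against 39.1 and 38.8 CPM in sgKMT2D-Epi. The C2-Mes libraries held 149 and 205 CPM, against 101 and 104 CPM in C2-Epi. Each mesenchymal pair was above its epithelial pair, with levels that ran in the order C2, sgEED, sgKMT2D among the mesenchymal groups. ETV5 rose in sgEED-Mes (log2 0.97 ± 0.17 (SE), adjusted p = 0.00042), in C2-Mes (log2 0.79 ± 0.17 (SE), adjusted p = 0.0016) and in sgKMT2D-Mes (log2 0.60 ± 0.17 (SE), adjusted p = 0.0089). The C2 call was 0.89 without C2-Mes replicate 1 and 0.50 without replicate 2, passing in both, and was lost with only the compared libraries in the fit (log2 0.80, adjusted p = 0.068). The sgKMT2D call was lost without sgKMT2D-Epi replicate 1, sgKMT2D-Epi replicate 2 or sgKMT2D-Mes replicate 1 (adjusted p = 0.058 to 0.065). sgEED-Mes, sgControl and sgKMT2D-Mes overlapped in the middle of the order, and C1 overlapped sgKMT2D-Epi. The neighbouring gene DGKG shares 164 bases of exon on the same strand and held 16 to 236 counts a library, against at least 813 for ETV5.

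Whether a gene changed differently between lineages was tested as the difference of the 2 log2 changes. The sgEED change minus the C2 change passed for 3 of 9 genes, all lower, where 21.1% of all genes passed (10.2% up, 10.9% down). The sgKMT2D change minus the C2 change passed for 6 of 9 genes, 1 higher and 5 lower, where 24.1% of all genes passed (12.3% up, 11.8% down). These 2 tests share the C2 libraries. The sgEED change minus the sgKMT2D change passed for 3 of 9 genes, 2 higher and 1 lower, where 20.1% of all genes passed (9.24% up, 10.9% down). DUSP4 differed most, by log2 -3.66 ± 0.24 (SE), adjusted p = 1.3e-07 for sgEED minus C2 and log2 -3.63 ± 0.24 (SE), adjusted p = 1.9e-07 for sgKMT2D minus C2, and did not pass between the 2 guides (log2 -0.02, adjusted p = 0.97). HRAS passed in all 3 tests, with log2 -1.14, adjusted p = 0.0032 for sgEED minus C2, log2 -2.24, adjusted p = 1.7e-05 for sgKMT2D minus C2 and log2 1.09, adjusted p = 0.0053 for sgEED minus sgKMT2D. DUSP5 differed between sgEED and sgKMT2D (log2 -2.41 ± 0.29 (SE), adjusted p = 6.8e-05). ETV4 fell further under the KMT2D guide than in C2 (difference log2 -1.59, adjusted p = 0.00048) and than under the EED guide (sgEED minus sgKMT2D log2 1.25, adjusted p = 0.0034). For ETV5, which rose in all 3 lineages, no difference passed, with 0.18, -0.20 and 0.38 on the log2 scale in the order of these tests and SEs of 0.24 each. Without C2-Mes replicate 2, DUSP5 passed as well for sgEED minus C2 (log2 -0.73, adjusted p = 0.0092), and NRAS for sgKMT2D minus C2 (log2 -0.99, adjusted p = 0.0098). SPRY4 passed for sgEED minus C2 without C2-Mes replicate 2 or either sgControl library (adjusted p = 0.020 to 0.048). Between the 2 guides, NRAS, SPRY2 and SPRY4 passed without either C2-Mes library, which takes no part in that difference (log2 0.88, 0.53 and 0.69, adjusted p = 0.013 to 0.038). With all libraries these were log2 0.86, 0.50 and 0.65. Leaving out a C2-Mes library changed the library to which the others were scaled and the number of genes tested, as most fits without 1 library did. It also took that library out of the pooled spread. The part of each in these calls was not tested.

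The mesenchymal groups were also set against each other, to ask whether mesenchymal cells of different origin hold the same levels. In sgEED-Mes against C2-Mes, 8 of 9 genes fell and none rose, where 41.9% of all genes passed (21.7% up, 20.2% down). In sgKMT2D-Mes against C2-Mes, 7 fell and none rose, where 33.4% of all genes passed (16.2% up, 17.2% down). Both comparisons use the same C2-Mes libraries. DUSP4 was the most reduced in both, by log2 -3.78 ± 0.18 (SE), adjusted p = 1.9e-09 in sgEED-Mes and log2 -3.46 ± 0.18 (SE), adjusted p = 8.8e-09 in sgKMT2D-Mes. SPRY4 fell to 37.8 ± 0.50 CPM in sgEED-Mes and 26.7 ± 0.206 CPM in sgKMT2D-Mes, against 143 ± 2.63 CPM in C2-Mes (log2 -1.92, adjusted p = 1.3e-06 and log2 -2.42, adjusted p = 2.7e-07). ETV4 fell in sgEED-Mes (log2 -0.92, adjusted p = 0.00076) and further in sgKMT2D-Mes (log2 -3.02, adjusted p = 5.6e-08). NRAS passed in neither (log2 0.20, adjusted p = 0.46 in sgEED-Mes, log2 -0.47, adjusted p = 0.098 in sgKMT2D-Mes), though without C2-Mes replicate 2 it fell in sgKMT2D-Mes (log2 -0.74, adjusted p = 0.0095). DUSP5 did not pass in sgKMT2D-Mes (log2 0.02, adjusted p = 0.97) and rested on which C2-Mes library was kept, with log2 0.47, adjusted p = 0.027 without replicate 1 and log2 -0.37, adjusted p = 0.052 without replicate 2. With only the compared libraries in the fit, the falls of DUSP6 (log2 -0.69, adjusted p = 0.11) and ETV4 (log2 -0.92, adjusted p = 0.073) in sgEED-Mes were lost. The remaining calls held without either C2-Mes library.

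Between the edited mesenchymal groups, sgEED-Mes against sgKMT2D-Mes, 4 genes rose and 2 fell, where 31.1% of all genes passed (17.7% up, 13.4% down). ETV4 was at 17.7 ± 3.68 CPM in sgEED-Mes, against 4.14 ± 0.473 CPM in sgKMT2D-Mes (log2 2.10 ± 0.19 (SE), adjusted p = 2.0e-06). HRAS rose too (log2 1.30, adjusted p = 5.9e-05), as did NRAS (log2 0.67, adjusted p = 0.024), which was lost without sgEED-Mes replicate 2, sgKMT2D-Mes replicate 1 or sgKMT2D-Mes replicate 2 (adjusted p = 0.12 to 0.25). SPRY4 passed narrowly (log2 0.50, adjusted p = 0.045) and was lost in 10 of 16 fits without 1 library, all but those without a C2-Mes, sgControl or sgEED-Epi library. DUSP5 (log2 -1.37, adjusted p = 0.0002) and SPRY2 (log2 -0.95, adjusted p = 0.00023) fell. DUSP4, DUSP6 and ETV5 did not pass, at log2 -0.32, 0.17 and 0.17.

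Among epithelial cells, C2-Epi against C1 sets the plastic state against the stable one. Of the 9 genes 6 rose and none fell, where 30.7% of all genes passed (12.4% up, 18.3% down). DUSP5 stood at 302 and 275 CPM in C2-Epi, against 73.96 and 78.2 CPM in C1 (log2 1.92 ± 0.21 (SE), adjusted p = 2.2e-05). DUSP6 stood at 376 and 427 CPM in C2-Epi, against 159 and 153 CPM in C1 (log2 1.36 ± 0.15 (SE), adjusted p = 2.8e-05). ETV5 stood at 101 and 104 CPM in C2-Epi, against 44 and 35.1 CPM in C1 (log2 1.37 ± 0.17 (SE), adjusted p = 5.7e-05). Both C2-Epi libraries were far above both C1 libraries for these 3 genes. SPRY4 stood at 63.2 and 60.3 CPM in C2-Epi, against 31.02 and 26.5 CPM in C1 (log2 1.10 ± 0.18 (SE), adjusted p = 0.00046). SPRY2, the other Sprouty gene, stood at 16.9 and 17.3 CPM in C2-Epi, against 17.1 and 16.6 CPM in C1, and did not pass (log2 0.02, adjusted p = 0.94). These ranges overlap, whereas the C2-Epi libraries of SPRY4 were both above the C1 libraries. NRAS (log2 0.61, adjusted p = 0.036) and DUSP4 (log2 0.46, adjusted p = 0.044) rose by less, and the call of DUSP4 was lost without C1 replicate 1, C1 replicate 2, C2-Epi replicate 1, C2-Epi replicate 2 or sgControl replicate 1 (adjusted p = 0.056 to 0.14) and that of NRAS without C1 replicate 1, C1 replicate 2, C2-Epi replicate 1 or C2-Epi replicate 2 (adjusted p = 0.0502 to 0.16). HRAS (log2 0.43, adjusted p = 0.069) and ETV4 (log2 0.36, adjusted p = 0.13) did not pass, though HRAS passed in 11 of 16 fits without 1 library, all but those without a C1 or C2-Epi library or sgControl replicate 1. ETV4 passed with only the compared libraries in the fit (log2 0.39, adjusted p = 0.00083), after correction for GC content and length (log2 0.98, adjusted p = 3.5e-06), and without a C2-Mes or an sgEED-Mes library. HRAS passed too with only the compared libraries in the fit (log2 0.46, adjusted p = 4.6e-05). It also passed with DESeq2 (log2 0.45, adjusted p = 0.042) and without the filter on low counts (log2 0.51, adjusted p = 0.033). With RLE scaling or a replicate block HRAS did not pass. Immediate early genes summed to 1369 to 1422 CPM in C2-Epi, against 815 to 880 CPM in C1.

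The sgControl cells, wild type by their labels, stood apart from C1. In sgControl against C1, 6 genes rose and 1 fell, where 27.1% of all genes passed (13.3% up, 13.8% down). DUSP5 stood at 308 and 243 CPM in sgControl, against 73.96 and 78.2 CPM in C1 (log2 1.86 ± 0.21 (SE), adjusted p = 5.2e-05). NRAS stood at 66.3 and 49.2 CPM in sgControl, against 110.5 and 110.0 CPM in C1 (log2 -0.93 ± 0.21 (SE), adjusted p = 0.0051), a call lost without sgControl replicate 2 (adjusted p = 0.079). Both sgControl libraries were outside the range of C1 for these genes. SPRY2, DUSP4, DUSP6, ETV4 and ETV5 rose by log2 0.48 to 0.65 with adjusted p = 0.012 to 0.038. Each of these 5 calls was lost without C1 replicate 2 and without sgControl replicate 1, and that of DUSP4 in 14 of the 16 fits without 1 library. Immediate early genes summed to 2682 to 2777 CPM in sgControl, against 815 to 880 CPM in C1, and ribosomal protein genes took 5.95% and 7.22% of counts in sgControl, against 3.27% to 4.997% in the other groups. Their part in these differences was not tested. The edited epithelial groups are therefore given against both sgControl and C1.

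**Figure D4:**
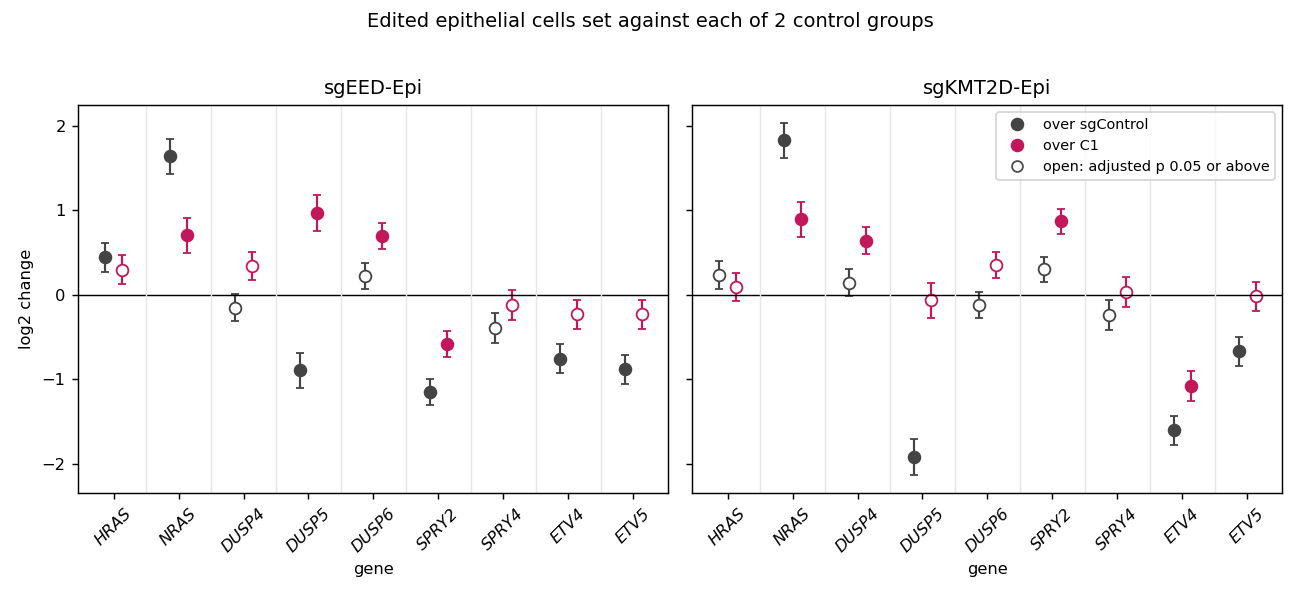
Fitted log2 change (± SE) of each gene in sgEED-Epi (left) and sgKMT2D-Epi (right), over sgControl (grey) and over C1 (magenta). Filled symbols have an adjusted p under 0.05. DUSP5 in sgEED-Epi lies at -0.89 over sgControl and at 0.97 over C1, while NRAS lies above 0 in all 4.

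In sgEED-Epi, 2 genes rose and 4 fell against sgControl, where 48.8% of all genes passed (24.3% up, 24.6% down). Against C1, 3 rose and 1 fell, where 25.2% of all genes passed (12.5% up, 12.6% down). NRAS rose against sgControl (log2 1.63 ± 0.21 (SE), adjusted p = 3.2e-05) and against C1 (log2 0.70, adjusted p = 0.023), at 202 and 157 CPM in sgEED-Epi, against 66.3 and 49.2 CPM in sgControl and 110.5 and 110.0 CPM in C1. SPRY2 fell against both, by log2 -1.15 ± 0.15 (SE), adjusted p = 4.0e-05 and log2 -0.58, adjusted p = 0.013. Its sgEED-Epi libraries were at 10.3 and 12.2 CPM, the lowest in the series. DUSP5 took opposite directions, a fall against sgControl (log2 -0.89 ± 0.21 (SE), adjusted p = 0.0029) and a rise against C1 (log2 0.97, adjusted p = 0.0042). Its level of 135 and 162 CPM lay between the control groups without overlap, and the fall was lost without sgEED-Epi replicate 1 (adjusted p = 0.051). The falls of ETV4 (log2 -0.75, adjusted p = 0.0026) and ETV5 (log2 -0.88, adjusted p = 0.00076) and the rise of HRAS (log2 0.44, adjusted p = 0.043) against sgControl did not pass against C1 (log2 -0.23, adjusted p = 0.37 for ETV4, log2 -0.23, adjusted p = 0.35 for ETV5 and log2 0.30, adjusted p = 0.22 for HRAS). The rise of HRAS over sgControl was also lost without sgControl replicate 1, sgEED-Epi replicate 1 or sgEED-Epi replicate 2 (adjusted p = 0.054 to 0.25). DUSP6 rose against C1 (log2 0.70, adjusted p = 0.0048) and did not pass against sgControl (log2 0.22, adjusted p = 0.25).

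In sgKMT2D-Epi, 1 gene rose and 3 fell against sgControl, where 56% of all genes passed (25.3% up, 30.7% down). Against C1, 3 rose and 1 fell, where 38.8% of all genes passed (16.4% up, 22.4% down). NRAS rose against sgControl (log2 1.82 ± 0.21 (SE), adjusted p = 9.1e-06) and against C1 (log2 0.89, adjusted p = 0.004), with 218 and 191 CPM and the highest group mean of the series. ETV4 fell against sgControl (log2 -1.60 ± 0.18 (SE), adjusted p = 5.9e-06) and against C1 (log2 -1.08, adjusted p = 0.00033), at 20.9 and 23.3 CPM in sgKMT2D-Epi, against 64.9 and 69.5 CPM in sgControl and 49.9 and 43.5 CPM in C1. The groups did not overlap. DUSP5 fell against sgControl (log2 -1.92 ± 0.21 (SE), adjusted p = 6.4e-06) and did not pass against C1 (log2 -0.07, adjusted p = 0.83), and likewise ETV5 (log2 -0.67, adjusted p = 0.004 against sgControl, log2 -0.02, adjusted p = 0.95 against C1). DUSP4 (log2 0.64, adjusted p = 0.0073) and SPRY2 (log2 0.87, adjusted p = 0.00052) rose against C1 and did not pass against sgControl in the fit of all libraries. Against sgControl, SPRY2 passed with RLE scaling, DESeq2, only the compared libraries or the GC and length correction (log2 0.37 to 0.53, adjusted p = 0.0028 to 0.043) and in 6 of 16 fits without 1 library, and DUSP4 with that correction (log2 0.46, adjusted p = 0.023).

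GC content and length of the transcripts were corrected for together, so their parts in the values below cannot be told apart. HRAS has the shortest exon length of the 9 genes (1854 bases). The longest HRAS transcript has a GC content of 65.8% and that of NRAS 38.4%, the highest and lowest of the 9 genes. A correction that removes, library by library, the trend of counts with GC content and length over 12660 genes moved these genes in several comparisons, as the plot with and without correction shows. For HRAS, sgKMT2D-Epi against sgControl stood at log2 1.60, adjusted p = 9.7e-07 with the correction, against log2 0.17, adjusted p = 0.38 for the same genes without it. C2-Epi against C1 stood at log2 1.24, adjusted p = 1.9e-05 with and log2 0.44, adjusted p = 0.055 without it. sgEED-Epi against sgControl stood at log2 1.25, adjusted p = 7.0e-06 with and log2 0.39, adjusted p = 0.062 without it. Whether HRAS passed in these 3 comparisons changed with the correction, as it did in sgControl against C1, where HRAS passed as a fall with it (log2 -0.45, adjusted p = 0.016) and not without it. For NRAS, the rise in sgKMT2D-Epi over sgControl was log2 0.80, adjusted p = 2.8e-05 with and log2 1.76, adjusted p = 1.9e-05 without it, and the rise in C2-Epi over C1 did not pass with it (log2 0.26, adjusted p = 0.055). NRAS passed as a fall in all 3 mesenchymal against epithelial comparisons with it, where only sgKMT2D-Mes passed without it. HRAS kept its direction and its call in those 3. ETV4, with a GC content of 60.8%, fell by log2 -0.62, adjusted p = 4.9e-05 in sgKMT2D-Epi against sgControl with the correction, and its fall in sgEED-Epi was lost (log2 -0.20, adjusted p = 0.054), as was that of DUSP5 (log2 -0.46, adjusted p = 0.16).

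**Figure D5:**
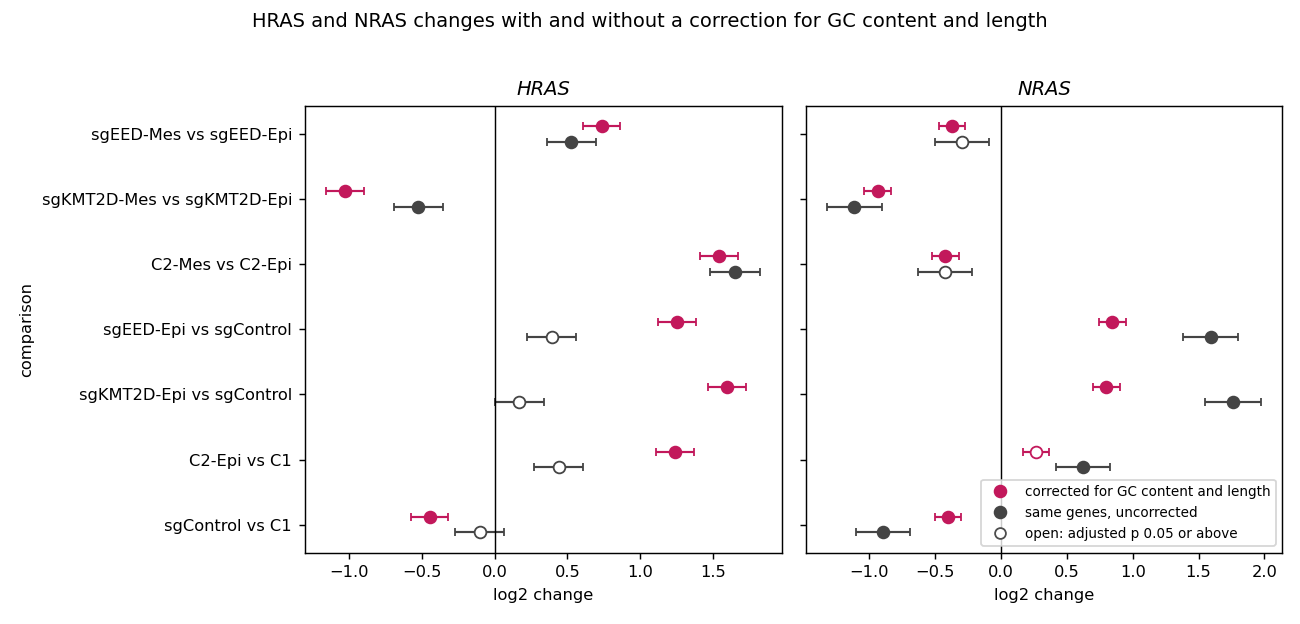
Log2 change (± SE) of HRAS (left) and NRAS (right) in 7 comparisons, corrected for GC content and length (magenta) and uncorrected over the same 12660 genes (grey). Filled symbols have an adjusted p under 0.05. HRAS in sgKMT2D-Epi over sgControl lies at 1.60 corrected and 0.17 uncorrected.

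How far the 9 genes varied together was described by Pearson correlations of log2 CPM over the 16 libraries, which share groups, so that no p is given. SPRY4 and ETV5 were the closest pair, with r of 0.924, and 0.841 over the 14 libraries without C2-Mes. HRAS and SPRY4 had r of 0.856, which was 0.446 without C2-Mes. ETV4 and ETV5, which belong to the same group of factors, had r of 0.0882, and SPRY2 and ETV4 had r of -0.398, or -0.722 without C2-Mes. Beyond the 9 genes, the 2 whose levels followed each one most closely were named. They were SCD (0.952) and ADAM33 (0.922) for HRAS, AGPS (0.977) and SYNCRIP (0.976) for NRAS, CDCP1 (0.940) and SLC6A15 (0.940) for DUSP4, and IER2 (0.913) and KIF9-AS1 (0.872) for DUSP5. For DUSP6 they were ALG8 (0.929) and WDR53 (0.928), for SPRY2 TMCC1-AS1 (0.929) and FNBP1 (0.924), for SPRY4 RAB31 (0.968) and GALNT13 (0.963), for ETV4 HTR7 (0.963) and TMEM241 (0.961), and for ETV5 KCTD21 (0.969) and MYL12A (0.958). Without C2-Mes, r with HRAS was 0.854 for SCD and 0.644 for ADAM33, and r with SPRY2 was 0.854 for TMCC1-AS1 and 0.858 for FNBP1. The other named genes had r of 0.861 to 0.980 over these 14 libraries. IER2 is itself an immediate early gene.

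The remaining genes of the pathway were read from 7 lists of 74 genes. Of 11 genes upstream of RAS, 1 rose and 4 fell in sgEED-Mes, 2 rose and 4 fell in sgKMT2D-Mes, and 1 rose and 5 fell in C2-Mes, each against the epithelial cells of its lineage. The shares of all genes that passed in these comparisons were 36.5%, 50.8% and 39.6%, so that 5, 6 and 6 of 11 lie near them. EGFR, which encodes the receptor of the EGF in the medium, fell in all 3. It was at 137 ± 19.1 CPM in sgEED-Mes, against 669.9 ± 28.8 CPM in sgEED-Epi, and at 154 ± 3.12 CPM in sgKMT2D-Mes, against 792 ± 10.97 CPM in sgKMT2D-Epi. In C2-Mes it was at 192 ± 64.7 CPM, against 687 ± 25.7 CPM in C2-Epi (SD, n = 2 each). Its fall in C2-Mes was log2 -2.34 without C2-Mes replicate 1 and -1.57 without replicate 2. The receptor genes MET and ERBB3 fell in all 3 as well, MET by log2 -1.63, -1.77 and -1.24 in that order. ERBB2 rose in sgKMT2D-Mes (log2 1.22, adjusted p = 0.00024). Of the 3 related GTPases, RRAS rose in all 3 lineages (log2 1.50, 2.41 and 2.01 in the same order). MRAS rose in sgEED-Mes (log2 3.44, adjusted p = 1.4e-08) and sgKMT2D-Mes (log2 2.87, adjusted p = 9.8e-08) and fell in C2-Mes (log2 -0.89, adjusted p = 0.0037). Of 9 GTPase-activating proteins, 1, 3 and 2 rose and 1, 1 and 4 fell, with RASA3 among those that rose each time (log2 1.56, 1.08 and 3.31). Of 5 exchange factors 2 could be tested, and RASGRF1 fell in C2-Mes (log2 -5.55, adjusted p = 2.0e-09) and rose in sgKMT2D-Mes (log2 1.35, adjusted p = 0.00014). Without C2-Mes replicate 1 and without replicate 2, MET, ERBB3, RRAS, MRAS, RASA3 and RASGRF1 kept their direction and passed in C2-Mes, MRAS at log2 -1.39 and -0.57.

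In the kinase cascade itself, of 10 RAF, MEK and ERK kinases and scaffolds tested, 1 rose and 1 fell in sgEED-Mes, 3 rose and 1 fell in sgKMT2D-Mes, and 1 fell in C2-Mes. Of all genes, 36.5%, 50.8% and 39.6% passed in these comparisons. MAP2K1, which encodes MEK1, fell each time (log2 -0.72, -0.92 and -0.43), and in C2-Mes did not pass without replicate 1 (log2 -0.35, adjusted p = 0.053). MAPK3, which encodes ERK1, rose in sgKMT2D-Mes to 54.7 ± 1.21 CPM, against 9.52 ± 1.74 CPM in sgKMT2D-Epi. The scaffold gene KSR1 rose in sgEED-Mes (log2 1.52, adjusted p = 0.00015) and sgKMT2D-Mes (log2 0.88, adjusted p = 0.0072). In C2-Mes, MAPK3 (log2 0.56, adjusted p = 0.065) and KSR1 (log2 0.35, adjusted p = 0.28) did not pass. Both values rested on which C2-Mes library was kept. Without replicate 1, MAPK3 and KSR1 stood at log2 0.83 and -0.28, and without replicate 2 at log2 -0.00015 and 0.73. Of 25 further feedback and target genes tested, 11 rose and 9 fell in sgEED-Mes, 7 rose and 11 fell in sgKMT2D-Mes, and 12 rose and 10 fell in C2-Mes, where 19.2%, 26.8% and 21% of all genes rose and 17.3%, 24% and 18.6% fell. Without C2-Mes replicate 1, 8 rose and 12 fell in C2-Mes, and without replicate 2, 13 rose and 9 fell. The medians were log2 0.27, -0.23 and 0.47, against 0.01, 0.02 and 0.01 over all genes. AREG, a ligand of EGFR, fell in sgEED-Mes (log2 -3.22, adjusted p = 2.7e-06), sgKMT2D-Mes (log2 -3.64, adjusted p = 7.7e-07) and C2-Mes (log2 -1.92, adjusted p = 0.00015). SPRY1 rose in sgEED-Mes (log2 1.91, adjusted p = 1.5e-05). The RAS inhibitor gene SPRED3 (log2 2.96, adjusted p = 3.0e-07) and the third PEA3 factor ETV1 (log2 2.65, adjusted p = 2.0e-07) rose in sgKMT2D-Mes. SPRY1, SPRED3 and ETV1 rose in C2-Mes too (log2 0.97, 1.63 and 1.23, adjusted p = 0.0041, 2.1e-05 and 0.00016). Without C2-Mes replicate 1 their values were log2 0.43, 1.80 and 0.89, and without replicate 2 log2 1.28, 1.23 and 1.38. DUSP2 fell in C2-Mes (log2 -3.19, adjusted p = 4.8e-06). The same shares of all genes apply to the 9 immediate early genes. Of these, 2 rose and 1 fell in sgEED-Mes, 8 rose and 1 fell in sgKMT2D-Mes, and none rose and 4 fell in C2-Mes. Without C2-Mes replicate 1, 8 fell there, and without replicate 2, 1 rose and 4 fell. FOSB rose in sgKMT2D-Mes (log2 2.66, adjusted p = 2.2e-05) and fell in C2-Mes (log2 -1.50, adjusted p = 0.0021), by log2 -2.47 without replicate 1 and -1.01 without replicate 2.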

How the data were processed

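RNA of 16 libraries of HMLER cells was sequenced, 2 in each of 8 groups. Per the submitters' processing notes, the authors aligned reads with STAR 2.7.1a to GRCh38 and counted them per gene with featureCounts. The deposited values are raw counts per Ensembl gene, with no normalization by the authors; the annotation release, the strand setting and any filter are not given in the sources used here. Symbols and coordinates came from GENCODE 29 (GRCh38), which holds 56868 of the 60448 identifiers (94.1%), and the others took at most 0.0463% of a library's counts. Total counts per library ran 18872124 to 31950649, and the fewest counts of any of the 9 genes in a library were 87 (ETV4 in sgKMT2D-Mes). The 9 genes and the pathway lists were chosen with earlier results of these data known.

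Counts were tested with edgeR 4.0.16 in R 4.3.3 (filterByExpr, TMM scaling, robust quasi-likelihood F test) in 1 fit of all 16 libraries with a mean per group, which left 8 residual degrees of freedom. P-values were adjusted by Benjamini-Hochberg over 18285 genes, and a gene was called at an adjusted p under 0.05. CPM are counts scaled by TMM to a total of 1000000 over the genes tested. The model was tested on simulated counts first. All 9 genes are named. From each of the 7 other lists, up to 4 called genes of largest change could be named, if their higher group averaged at least 5 CPM, and EED, KMT2D and EGFR by choice. For each of the 9 genes, the 2 genes outside them with the highest Pearson r over the 16 libraries (log2 CPM, prior count 2, at least 5 CPM) were named. Other settings tried were no count filter, RLE scaling, DESeq2 1.42.0, the compared libraries only, a replicate block, leaving out each library, plain library totals for levels, C1 in place of sgControl, and a spline correction (limma 3.58.1, 4 degrees of freedom) for GC content and length in the genes that averaged 50 counts or more. The last was also set beside the same genes uncorrected, and the other lists were read in C2-Mes against C2-Epi without each C2-Mes library; both were chosen after seeing the data. Tables and plots used Python 3.11.15 with numpy 2.4.6, pandas 2.3.3 and matplotlib 3.10.9.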

Additional observations from a re-analysis of the deposited data

Results flagged for a closer look

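The mesenchymal over epithelial change was compared between lineages by the test of the difference itself (edgeR, adjusted over all genes). Of the 9 genes, 3, 6 and 3 passed in the 3 tests in the order below, where 21.1%, 24.1% and 20.1% of all genes passed. Values are differences of log2 changes. For sgEED minus C2, these were -1.14 for HRAS, -3.66 for DUSP4 and -1.44 for SPRY2. For sgKMT2D minus C2, they were -2.24 for HRAS, -3.63 for DUSP4, -1.94 for SPRY2, -1.35 for SPRY4 and -1.59 for ETV4 on the lower side, and 2.01 for DUSP5 on the higher. For sgEED minus sgKMT2D, they were 1.09 for HRAS and 1.25 for ETV4, and -2.41 for DUSP5. The first 2 tests share the C2 libraries, whose mesenchymal pair stood further apart than the other pairs. The third difference is the first minus the second, so the 3 tests are not independent. Each of these 12 differences passed in all 16 fits without 1 library.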

How the results depend on the processing

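Of 117 changes and differences of the 9 genes, 111 kept their direction and call under RLE scaling, 107 under DESeq2, 106 with only the compared libraries, 101 without the filter on low counts and 91 under the GC and length correction (113 for its genes uncorrected). Of 18 values against sgControl, 6 did so with C1 in its place, and of 1872 values in fits without 1 library, 1657 did. With 2 libraries a group, a library left out leaves 1, which is assumed to vary like the other groups. Such fits also tested 19131 to 19267 genes, and all but that without sgControl replicate 1 scaled to that library in place of C2-Mes replicate 2. Plain library totals moved group means by a factor of 0.911 to 1.09. Of 72 group means, 31 moved by at least the SD of their 2 libraries.

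The number of the 9 genes called was 4 for sgControl against C1 without the filter, against 7, and 2 to 7 without 1 library. It was 7 for sgKMT2D-Epi against sgControl with the GC correction, against 4. For sgEED minus sgKMT2D it was 5 with DESeq2, with the compared libraries only and with the GC correction, against 3, and 3 to 6 without 1 library. For sgEED minus C2 it was 3 to 5 without 1 library. With C1 in place of sgControl, log2 turned to 0.34 for DUSP4 and 0.97 for DUSP5 in sgEED-Epi, and to 0.36 for DUSP6 and 0.035 for SPRY4 in sgKMT2D-Epi, the last also 0.013 with the GC correction. DUSP5 in sgKMT2D-Mes against C2-Mes turned to -0.0056 with RLE, -0.0048 with DESeq2 and -0.17 with the GC correction, which also turned DUSP6 to -0.058 and ETV5 to -0.068 in sgEED-Mes against sgKMT2D-Mes. For DUSP6, sgEED minus C2 turned to 0.0018 with RLE, 0.017 without the filter, 4.1e-05 with DESeq2 and 0.00044 for the genes of the correction uncorrected. For DUSP4, sgEED minus sgKMT2D turned to 0.0098, 0.011 and 0.046 with RLE, DESeq2 and the GC correction. Of these turned values, that of DUSP5 in sgEED-Epi passed on both sides and the others on neither. The cause was not tested.

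Without 1 library, values that changed sign ran from -0.083 to 0.53 for SPRY4 in sgControl against C1, -0.17 to 0.040 for DUSP6 and -0.44 to 0.12 for SPRY4 in sgKMT2D-Epi against sgControl, -0.076 to 0.46 for NRAS in sgEED-Mes against C2-Mes and -0.37 to 0.47 for DUSP5 in sgKMT2D-Mes against C2-Mes. For sgEED minus C2 they ran -0.11 to 0.43 for NRAS, -0.73 to 0.11 for DUSP5 and -0.14 to 0.17 for DUSP6. For sgKMT2D minus C2 they ran -0.37 to 0.019 for ETV5, and for sgEED minus sgKMT2D -0.063 to 0.087 for DUSP4 and -0.29 to 0.011 for DUSP6.

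Over all genes, fits of only the compared libraries called 3361 genes for C2-Mes against C2-Epi (7246 with all libraries), 9967 for C2-Epi against C1 (5620), 3567 for sgEED-Mes against C2-Mes (7664), 2112 for sgKMT2D-Mes against C2-Mes (6103) and 2130 for sgEED minus C2 (3866). With C1 in place of sgControl, sgEED-Epi had 4601 genes called (8930). The GC correction put 57.3% of calls on the higher side for C2-Epi against C1 (42% for the same genes uncorrected, 40.4% over all genes tested), 37.9% for sgEED-Mes against C2-Mes (50% and 51.9%) and 43.6% for sgEED-Mes against sgKMT2D-Mes (54.5% and 56.8%). The median over its genes in the second of these minus that over all genes tested was -0.157 on the log2 scale. Replicate numbers did not pair the libraries, with correlations of deviations between groups of -0.371 to 0.344. A replicate block changed 2 calls, with adjusted p = 0.052 for DUSP4 in C2-Epi against C1 (0.044 without it) and adjusted p = 0.043 for DUSP5 in C2-Mes against C2-Epi (0.051 without it), both by edgeR.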
